A study of Rattus norvegicus with 4 samples.

Results

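The nuclear receptors outside the clock and corticosteroid groups are 39 genes, taken by symbol from the deposited transcript table of the kidney inner medulla in female and male rats. All 39 were found, each on 1 row, among 35374 loci in the table, of which 20240 carry a gene symbol. The rule used names and no measured difference, but the receptors were chosen with earlier results of these data known. The tissue came from Sprague Dawley rats, bought at 13 to 15 weeks of age, that were put on chow with 0.49% NaCl at 14 to 16 weeks of age and kept on it for 2 weeks with no other treatment. The female group held 2 pools and the male group 2 pools, each pool made of RNA from 4 rats, so that 8 females and 8 males were sampled. Both groups shared the strain, the diet and its duration, and no other diet is compared here. The collecting duct water channel gene Aqp2, a marker of the labelled tissue, was at 8463 FPKM in females and 11693 FPKM in males. Total RNA was sequenced to 34552171 to 41945343 read pairs per pool, with 89.6% to 90.3% mapped.

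The deposited table gives 1 expression value per gene and sex, read as FPKM (sequenced fragments of a gene relative to its length and the library's size), in which the authors merged each sex's pools. The values therefore carry no SD of their own, and what stands for error is a pair of numbers per locus in the authors' deposited table, the p-value and its adjusted form, the q-value. A gene is said to be called, or to be higher in a sex, where that q was under 0.05. The smallest p and q in the authors' deposited table are 5e-05 and 0.00391. Positions are loci of build rn5 as deposited, and FPKM, being per length, allows levels of different genes to be set side by side.

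Nuclear receptors are transcription factors that share a zinc-finger DNA-binding domain and a ligand-binding domain. Many bind a small fat-soluble ligand, such as a steroid, vitamin D, retinoic acid, thyroid hormone, a fatty acid or a bile acid, and many of these act as heterodimers with a retinoid X receptor (RXR). Others are called orphans because no natural ligand was known when they were found. Coactivators and corepressors, recruited according to the ligand, set whether a bound gene is switched on or off. In the kidney the family is known for vitamin D control of calcium handling, for PPARG in the collecting duct, where its agonist drugs cause fluid retention, and for HNF4A in the proximal tubule.

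Of the 39 receptors the authors tested 30, and 2 were called, Vdr and Hnf4a, both higher in females. That is 6.67% of the tested receptors, against 2.34% of all 20307 tested loci, of which 1.63% were higher in females and 0.719% higher in males. No receptor was higher in males. At an unadjusted p under 0.05 in the authors' deposited table the count was 6 of 30, or 20.0%, against 9.77% of all tested loci (6.08% with the larger value in females and 3.68% with the larger value in males); Nr2f1, Nr2f2, Nr1h3 and Nr0b2 joined Vdr and Hnf4a, and the female value was the larger in all 6. With q under 0.10 the count was 4, adding Nr2f1 and Nr2f2, against 3.4% of all tested loci. With p adjusted over the 16984 tested loci whose mean FPKM reached 1 it was 2, against 2.44% of those loci, and over loci whose mean FPKM reached 5 it was 1, since Hnf4a lies under that level. For that last setting the share of all loci called was not counted. The female value was the larger in 19 of the 30 tested receptors (63.3%), against 49.1% of the 20037 tested loci above 0 in both sexes. As log2 of female over male, the median was 0.16 over the tested receptors and -0.0048 over those loci. With a pseudocount of 1 the receptors' median was 0.10, as it was over the receptors whose mean FPKM reached 1. The ratios ran from -0.26 (Pparg) to 1.17 (Nr1i2), 23 of 30 receptors were less than 1.5-fold apart, and the 7 at least 1.5-fold apart all had the larger value in females. The share of all tested loci that far apart was not counted. Nr1i2, 1 of the 7, was at only 0.370 FPKM in females and 0.165 FPKM in males.

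**Figure D1:**
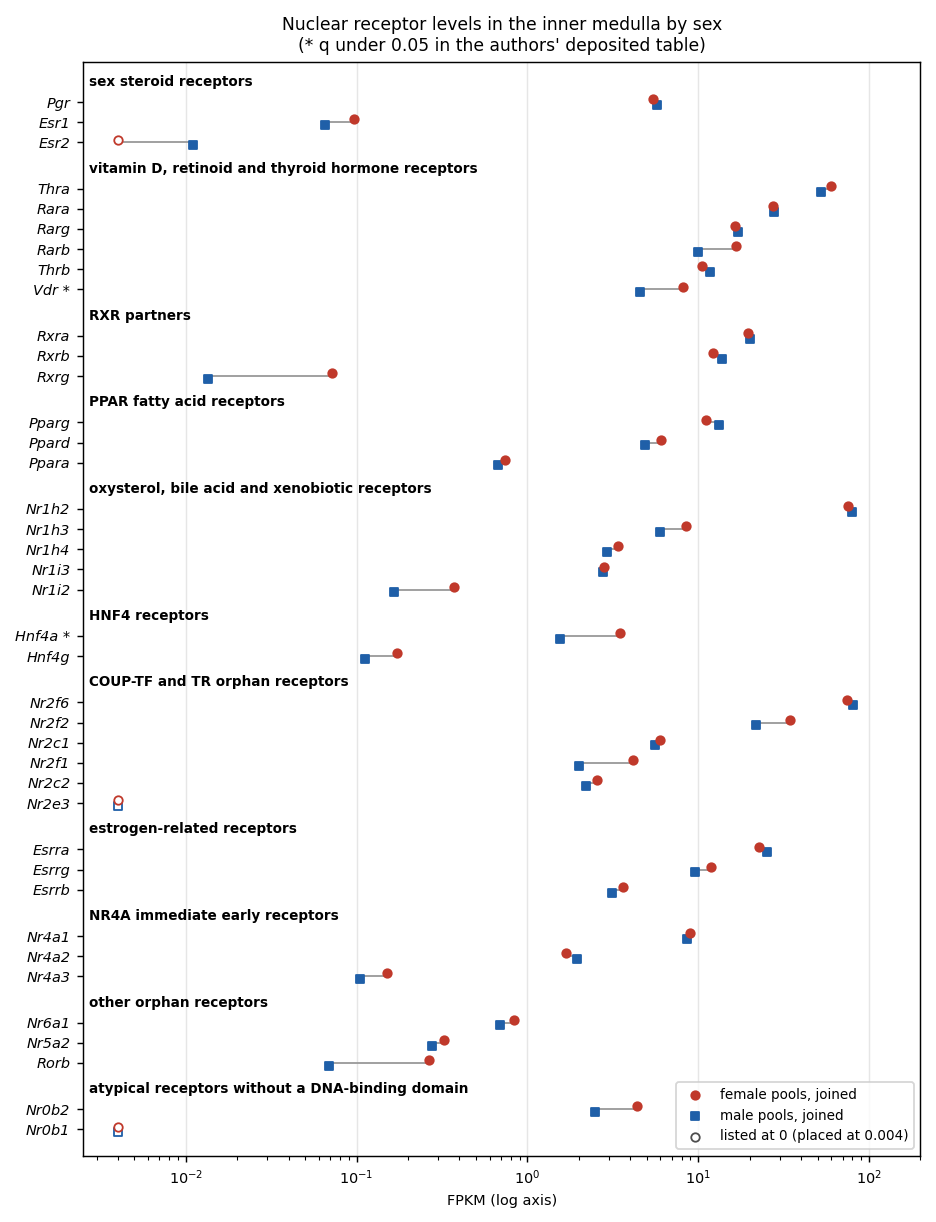
FPKM of each of the 39 receptors in the joined female pools (circles) and the joined male pools (squares), on a log axis, grouped by role; open symbols mark values listed at 0, and an asterisk marks q under 0.05 in the authors' deposited table. Levels run from 0 for Nr2e3 and Nr0b1 to 74.9 FPKM for Nr1h2 in females and 80.9 FPKM for Nr2f6 in males, and the lines that join the sexes are short for most genes.

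Levels covered a wide range, with 13 receptors at a mean of the sexes of at least 10 FPKM, 14 from 1 to 10 FPKM and 12 under 1 FPKM. Nr2f6, Nr1h2 and Thra stood above 50 FPKM, and Nr2f2, Rara, Esrra, Rxra, Rarg, Rarb, Rxrb, Pparg, Thrb and Esrrg followed. Neighbours in this order mostly lay within 1.5-fold of each other, and among the 13 highest the widest step, 2.003-fold, separated Thra and Nr2f2. The 9 receptors the authors did not test, Esr1, Esr2, Rxrg, Hnf4g, Nr2e3, Nr4a3, Nr5a2, Rorb and Nr0b1, were all at or under 0.326 FPKM in both sexes. The median of the mean FPKM was 6.78 over the tested receptors and 4.87 over all tested loci.

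**Figure D2:**
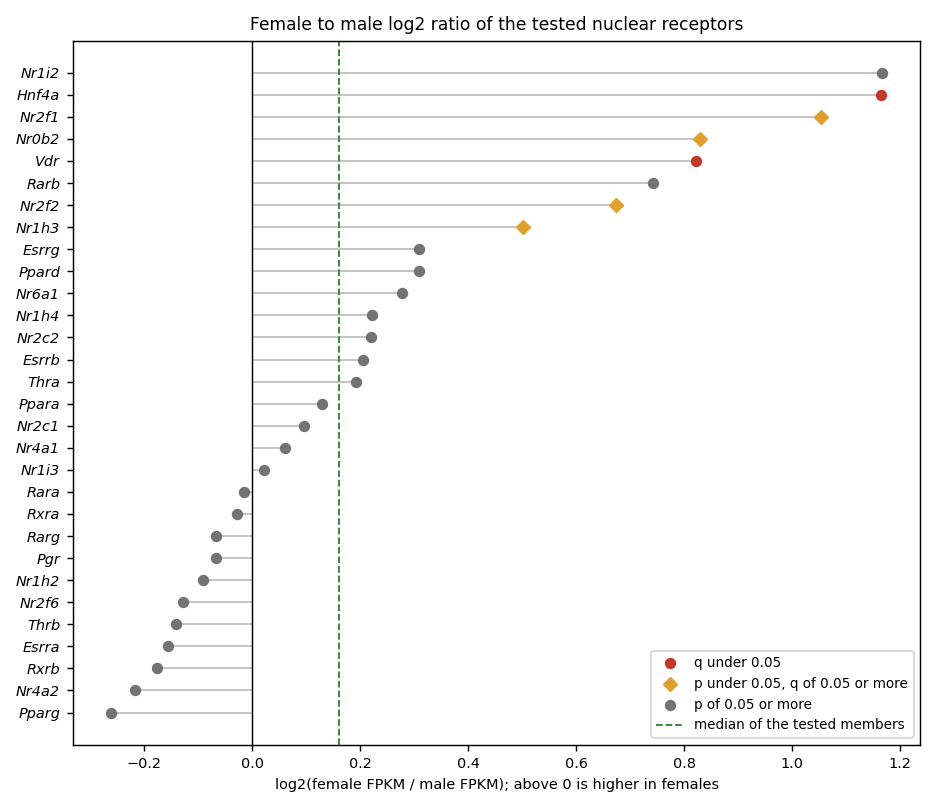
Log2 ratio of female to male FPKM for the 30 tested receptors, ordered by ratio; points to the right of 0 have the larger value in females, colours give the result in the authors' deposited table and the dashed line is the median of 0.16. Vdr (0.82) and Hnf4a (1.16) have q under 0.05, and no receptor lies below -0.26.

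Of the estrogen and progesterone receptors, only the progesterone receptor was tested by the authors. Pgr, on chromosome 8 between 7113894 and 7172761, was at 5.44 FPKM in females and 5.70 FPKM in males, and the authors' deposited table gives q = 0.999. The sexes lay 1.05-fold apart for the receptor of an ovarian hormone. Esr1, which encodes estrogen receptor alpha, was at 0.0964 FPKM in females and 0.0649 FPKM in males, and Esr2, for estrogen receptor beta, was listed at 0 in females and at 0.0111 FPKM in males; neither was tested. A locus with no symbol on the Esr1 interval was at 0.490 FPKM in females and 0.250 FPKM in males, above Esr1 itself in both sexes and also not tested. Of 13 genes on a list of estrogen and progesterone targets and membrane receptors, 9 were tested and 1 was called. Susd3, reported as an estrogen-induced gene in human breast cancer cells, was at 4.16 FPKM in females and 1.45 FPKM in males (the authors' deposited table gives q = 0.0148). The list's median log2 ratio was 0.04.

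Vdr, the receptor of active vitamin D, was higher in females. It stood at 8.11 FPKM in females and 4.59 FPKM in males, 1.77-fold apart, and the authors' deposited table gives q = 0.00391 (chromosome 7, 139533857 to 139585928). That q is the smallest the table holds, and no other locus in the table has the same interval. The promoter window of Vdr, from 250 bases before to 50 bases after the start given by RefSeq, is shown because it is the regulatory sequence next to the start of 1 of the 2 called genes; it lies on the minus strand of build GRCr8 at chr7:130916708-130917007, and capitals mark the GC box GGGCGG, a motif bound by SP1-type factors.
Vdr: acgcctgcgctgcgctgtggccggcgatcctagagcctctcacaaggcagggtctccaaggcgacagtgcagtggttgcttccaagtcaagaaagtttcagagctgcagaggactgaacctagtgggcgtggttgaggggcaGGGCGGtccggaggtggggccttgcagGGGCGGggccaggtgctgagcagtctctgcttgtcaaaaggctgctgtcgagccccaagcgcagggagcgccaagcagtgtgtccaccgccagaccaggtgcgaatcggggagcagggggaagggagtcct
The motif, searched on both strands, begins at -108 and -81 from the start. Windows were at hand for 34 of the 39 receptors, and 21 of their 41 windows (51.2%) hold it, against 33.1% of all 33469 windows. The match describes the letters of the window, not a site in use.

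Genes of vitamin D metabolism and known targets of the receptor were not called in either direction, with 0 of 8 tested passing by the authors' test and 3 of 8 at an unadjusted p under 0.05, 1 with the larger value in females (Cyp2r1) and 2 with the larger value in males (Gc and Calb1, the last also a distal tubule marker). Atp2b1, a calcium pump of the cell membrane, was at 7.90 FPKM in females and 7.86 FPKM in males. The calcium channel Trpv6 was at 1.18 FPKM in females and 1.66 FPKM in males, and the sodium-calcium exchanger Slc8a1 at 6.17 and 6.78 FPKM in females and males. Cyp2r1, an enzyme of vitamin D activation, was at 1.73 FPKM in females and 1.08 FPKM in males, and the authors' deposited table gives p = 0.0172 and q = 0.289. Cyp24a1, which breaks active vitamin D down and is strongly induced by its receptor, was at 0.0594 FPKM in females and 0.0843 FPKM in males and was not tested; it is named here after its values were seen. The list's median log2 ratio was -0.09, beside 0.82 for Vdr.

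Retinoic acid receptors were present in all 3 forms, and none was called. Rara was at 27.6 FPKM in females and 27.9 FPKM in males, and Rarg at 16.3 FPKM in females and 17.1 FPKM in males. For these the sexes were within 1.05-fold of each other. Rarb, itself a textbook target of retinoic acid, was at 16.7 FPKM in females and 9.97 FPKM in males, 1.67-fold apart, and the authors' deposited table gives p = 0.0684 and q = 0.594. Rarb supplied 27.5% of the summed level of the 3 receptors in females and 18.2% in males. An assembled locus with no symbol has the same interval as Rarb (chromosome 15, 13963827 to 14327353) and was at 27.3 FPKM in females and 28.3 FPKM in males, so how fragments were divided between the 2 loci is uncertain.

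Among genes of retinoid handling and retinoic acid targets, 3 of 15 tested were called, 2 higher in females and 1 higher in males. Dhrs3, which turns retinal back into retinol, was at 35.0 FPKM in females and 22.1 FPKM in males (the authors' deposited table gives q = 0.0123). Aldh1a3, which makes retinoic acid from retinal, was at 79.2 FPKM in females and 129 FPKM in males, 1.62-fold higher in males, and the authors' deposited table gives q = 0.00391. Its relative Aldh1a2 had the larger value in females, at 7.22 FPKM against 4.57 FPKM in males, and was not called (the authors' deposited table gives q = 0.0920). Another relative, Aldh1a1, had the larger value in males, at 336 FPKM against 266 FPKM in females, and was not called. For Aldh1a1 the authors' deposited table gives p = 0.0468 and q = 0.492. At an unadjusted p under 0.05 in the authors' deposited table there were 5 genes with the larger value in females and 2 with the larger value in males. The list's median log2 ratio was 0.23. Of the interstitial fibroblast markers, 5 of 10 tested were also higher in females. All 10 had the larger value in females, and 8 had an unadjusted p under 0.05 in the authors' deposited table. None was at 0, and they summed to 162 FPKM in females and 100.1 FPKM in males. Their part in the values of Dhrs3 and Rarb was not tested.

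Thyroid hormone receptors did not pass the test. Thra was at 60.2 FPKM in females and 52.7 FPKM in males, and Thrb at 10.6 FPKM in females and 11.7 FPKM in males, and the authors' deposited table gives q = 0.999 for both. The alpha form held 85.03% of the summed level in females and 81.9% in males. Nr1d1, the REV-ERB alpha gene, lies tail to tail with Thra on the opposite strand and has the same deposited interval (chromosome 10, 86453389 to 86486598); it was at 70.3 FPKM in females and 65.0 FPKM in males, and without strand in the counting, fragments from their overlap cannot be assigned to 1 of them. Of 5 tested genes of thyroid hormone transport, binding and response, 1 was called. Thrsp, a regulator of fat synthesis induced by thyroid hormone in liver, was at 39.5 FPKM in females and 81.5 FPKM in males, 2.06-fold higher in males (the authors' deposited table gives q = 0.00391). For that list the median log2 ratio came to 0.02.

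RXR genes, which encode the shared partners of the vitamin D, retinoid, thyroid hormone, PPAR, LXR and FXR receptors, did not pass the test. Rxra was at 19.6 FPKM in females and 20.0 FPKM in males, and Rxrb at 12.2 FPKM in females and 13.8 FPKM in males, and the authors' deposited table gives q = 0.999 for Rxra and q = 0.981 for Rxrb. Rxrg was at 0.0717 FPKM in females and 0.0134 FPKM in males and was not tested. The summed level of the 3 was 31.9 FPKM in females and 33.8 FPKM in males. Vdr stood at 0.414 of the Rxra level in females and at 0.229 of it in males.

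The fatty acid receptors of the PPAR group were led by Pparg, the adipocyte and collecting duct form. Pparg was at 11.1 FPKM in females and 13.3 FPKM in males, the receptor with the lowest female to male ratio among those tested, and was not called (the authors' deposited table gives p = 0.187 and q = 0.851). Ppard was at 6.03 FPKM in females and 4.87 FPKM in males, and Ppara, the main form of liver and proximal tubule, at 0.735 FPKM in females and 0.672 FPKM in males. Pparg made up 62.2% of the summed level in females and 70.6% in males. The plot by role shows the same order of the 3 forms in both sexes.

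Of 18 tested PPAR targets of fatty acid breakdown, 1 was called, higher in females. The list's median log2 ratio was 0.11, and 16 of the 18 had the larger value in females. Among PPARG and adipocyte genes, 1 of 7 tested was called, with a median of 0.29. Fabp4, a fatty acid carrier of fat cells that capillary endothelium also expresses, was at 92.5 FPKM in females and 49.96 FPKM in males (the authors' deposited table gives q = 0.00391). Of 6 adipocyte markers 3 were tested and Fabp4 alone was called, Lep was listed at 0 in both sexes and Retn at 0 in males, and Plin1 was not tested. The other tested adipocyte markers were Adipoq, at 4.14 FPKM in females and 2.67 FPKM in males, and Cidec, at 0.605 FPKM in females and 0.635 FPKM in males. All 10 endothelial markers had the larger value in females, with 1 called and sums of 681 FPKM in females and 461 FPKM in males. Of these 10, 6 had an unadjusted p under 0.05 in the authors' deposited table. The part of either cell type in the value of Fabp4 was not tested.

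LXR receptors sense oxysterols and drive cholesterol export and fat synthesis. Nr1h2, the widely expressed LXR beta, was at 74.9 FPKM in females and 79.8 FPKM in males, and the authors' deposited table gives q = 0.999. Nr1h3, LXR alpha, was at 8.46 FPKM in females and 5.98 FPKM in males, 1.42-fold apart, and the authors' deposited table gives p = 0.0327 and q = 0.410, so it did not pass. The beta form made up 89.9% of the summed level in females and 93.04% in males. Of 10 tested LXR targets 1 was called: Scd, a stearoyl-CoA desaturase, at 61.8 FPKM in females and 98.2 FPKM in males, 1.59-fold higher in males (the authors' deposited table gives q = 0.00391). Over these targets the median log2 ratio came to 0.0048. Macrophages are known to express Nr1h3. All 6 tested leukocyte markers had the larger value in females, none was at 0, and the list summed to 624 FPKM in females and 454 FPKM in males. Without Cd74 and Lyz2 the sums were 18.0 FPKM in females and 12.5 FPKM in males. Only Cd3e, a T cell gene, was called (the authors' deposited table gives q = 0.0148). An unadjusted p under 0.05 in the authors' deposited table was held by 5 of the 6, all with the larger value in females. The macrophage markers Csf1r, at 9.42 FPKM in females and 6.51 FPKM in males, and Cd68, at 4.24 and 4.04 FPKM, were not called. Csf1r was among those 5 (the authors' deposited table gives p = 0.0077 and q = 0.175), and Cd68 was not. The part of leukocytes in the value of Nr1h3 was not tested.

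Receptors for bile acids and foreign compounds were low. Nr1h4, the bile acid receptor FXR, was at 3.41 FPKM in females and 2.92 FPKM in males, and Nr1i3, the xenobiotic receptor CAR, at 2.80 FPKM in females and 2.76 FPKM in males. Nr1i2, the pregnane X receptor, was at 0.370 FPKM in females and 0.165 FPKM in males, and although its log2 ratio of 1.17 was the highest of the tested receptors, q was 0.999 in the authors' deposited table. It also shares its interval with Gsk3b, and Nr1i3 with Tomm40l. Of 5 tested targets of these 3 receptors none was called, and at an unadjusted p under 0.05 in the authors' deposited table there was 1, Abcb1b, at 0.537 FPKM in females and 0.0716 FPKM in males. Abcc3, a drug efflux pump, was at 1.57 FPKM in females and 1.63 FPKM in males, and their median log2 ratio was 0.24 over the 4 above 0 in both sexes.

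Hnf4a, a receptor that drives the gene program of proximal tubule and liver, was higher in females. It was at 3.47 FPKM in females and 1.55 FPKM in males, 2.24-fold apart, and the authors' deposited table gives q = 0.00703 (chromosome 3, 166127643 to 166155674). Its relative Hnf4g was at 0.172 FPKM in females and 0.112 FPKM in males and was not tested. The gene is known to have 2 promoters, used differently between tissues, and RefSeq gives 2 start windows on the plus strand of GRCr8, 35616 bases apart, at chr3:172605970-172606269 and chr3:172641586-172641885. They are shown because the values per gene do not separate them; capitals mark the GC box GGGCGG on either strand, as in the Vdr window.
Hnf4a, upstream window: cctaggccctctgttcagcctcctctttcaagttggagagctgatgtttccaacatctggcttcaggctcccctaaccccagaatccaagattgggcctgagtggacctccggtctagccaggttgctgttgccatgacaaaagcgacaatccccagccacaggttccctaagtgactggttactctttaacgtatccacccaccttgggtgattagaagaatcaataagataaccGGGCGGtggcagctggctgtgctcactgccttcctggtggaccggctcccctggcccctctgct
Hnf4a, downstream window: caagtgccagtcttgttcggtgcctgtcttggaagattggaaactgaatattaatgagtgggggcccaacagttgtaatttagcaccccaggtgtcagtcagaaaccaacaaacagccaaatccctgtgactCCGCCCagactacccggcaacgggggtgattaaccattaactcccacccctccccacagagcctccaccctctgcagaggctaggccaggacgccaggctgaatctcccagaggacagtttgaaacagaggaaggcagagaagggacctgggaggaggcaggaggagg
The upstream window has 1 match, which begins at -14 from its start, and the downstream window has 1, on the minus strand, which begins at -118. From RNA values per gene the start in use cannot be read.

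Among genes known as HNF4A targets in proximal tubule or liver, 4 of 12 tested were called, all higher in females, with a median log2 ratio of 0.74. At an unadjusted p under 0.05 there were 6 with the larger value in females and 1 with the larger value in males, Apoa1, a lipoprotein gene, at 0.267 FPKM in females and 1.74 FPKM in males (the authors' deposited table gives p = 0.0052 and q = 0.132). Slc34a1, which takes up phosphate with sodium, was at 16.2 FPKM in females and 9.63 FPKM in males (the authors' deposited table gives q = 0.00391). Slc22a6, an organic anion transporter, was at 3.63 FPKM in females and 1.75 FPKM in males (the authors' deposited table gives q = 0.0284). Its relative Slc22a7 was at 8.93 FPKM in females and 0.225 FPKM in males, the widest gap on the list at 39.6-fold. Cyp2e1, a cytochrome P450 of liver and kidney, was at 4.35 FPKM in females and 0.583 FPKM in males. Of the 13 genes on this list 6 are also among the 18 proximal tubule markers, so the lists are not independent, and all 4 called genes are in both.

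Of the proximal tubule markers, 10 of 15 tested were called, all higher in females, with a median log2 ratio of 1.12. Their summed level was 1723 FPKM in females and 891 FPKM in males, and no marker found was at 0 in either sex. Kap, a proximal tubule gene known from rodents, carried most of that gap, at 910 FPKM in females and 131 FPKM in males. Without it the other 16 markers found summed to 813 FPKM in females and 760.5 FPKM in males, and without Slc7a13 as well to 712 FPKM in females and 714 FPKM in males. Most of what was left was Aqp1, at 618 FPKM in females and 660 FPKM in males (the authors' deposited table gives q = 0.999). The sums without Kap all include Aqp1 and therefore say little of the other markers. Beside it, Slc34a1 was at 16.2 FPKM in females and 9.63 FPKM in males. Whether Aqp1 reports proximal tubule in this tissue was not tested. The proximal tubule belongs to cortex and outer medulla, not to the inner medulla named by the labels. The part of these cells in the Hnf4a value was not tested. In tissue RNA of this kind, fewer cells of a type and less RNA per cell cannot be told apart. Principal cell markers, which define the collecting duct, summed to 15204 FPKM in females and 20652 FPKM in males with 0 of 12 tested called by the authors' test. At an unadjusted p under 0.05 there were 5 of 12, 3 with the larger value in females (Scnn1g, Hsd11b2 and Tfap2b) and 2 with the larger value in males (Fxyd4 and Slc14a2). Without Aqp2 and Fxyd4 the other 10 summed to 2734 FPKM in females and 3044 FPKM in males.

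**Figure D3:**
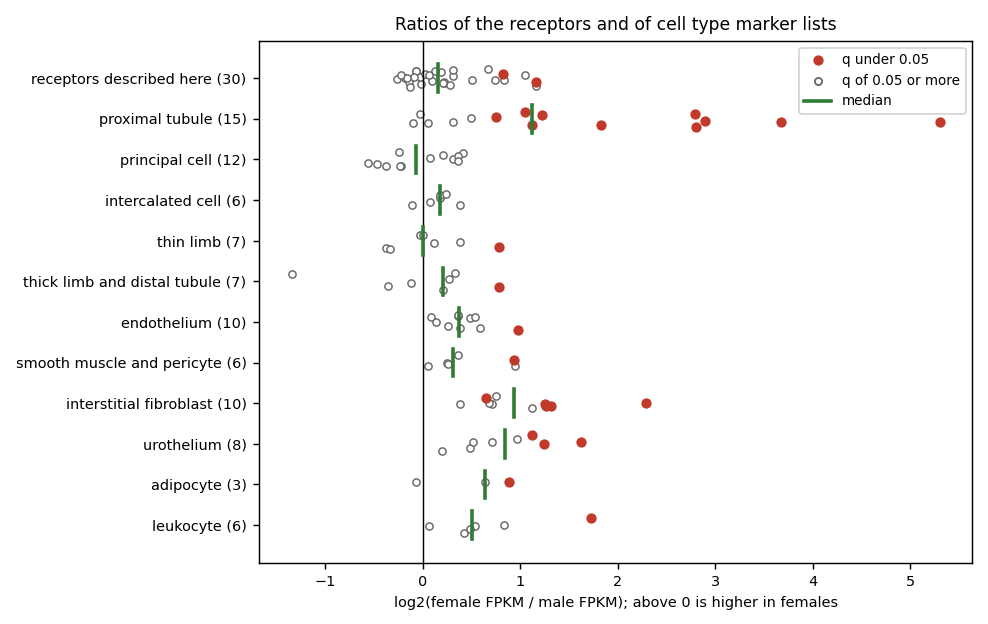
Log2 ratio of female to male FPKM for the tested receptors (top) and for the tested genes of 11 cell type marker lists, with the number of genes plotted in brackets; filled points have q under 0.05 in the authors' deposited table and bars are medians. Most lists have a median to the right of that of the receptors (0.16), and principal cells (-0.07) and thin limb (0.0058) do not. Proximal tubule (median 1.12), interstitial fibroblast (0.94) and urothelium (0.84) lie furthest to the right.

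Among the COUP-TF receptors, orphans of vessel, stroma and organ development, the pair Nr2f1 and Nr2f2 had the larger value in females and came near the threshold without passing it. Nr2f1 (COUP-TFI), on chromosome 2 between 5553706 and 5562941, was at 4.16 FPKM in females and 2.00 FPKM in males, 2.08-fold apart, and the authors' deposited table gives p = 0.0014 and q = 0.0560. Nr2f2 (COUP-TFII), on chromosome 1 between 132485101 and 132552593, was at 34.6 FPKM in females and 21.7 FPKM in males, 1.59-fold apart, and the authors' deposited table gives p = 0.00255 and q = 0.0838. Nr2f6 (EAR2), the most distant of the group, was at 74.03 FPKM in females and 80.9 FPKM in males (the authors' deposited table gives q = 0.999). The share of Nr2f2 in the summed level of the 3 was 30.7% in females and 20.8% in males.

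The 5 of 10 interstitial fibroblast markers called higher in females stand in the same comparison, and the median log2 ratio of the 10 was 0.94. In all, 8 of the 10 had an unadjusted p under 0.05 in the authors' deposited table, with the larger value in females. Pdgfra, a growth factor receptor of fibroblasts, was at 14.8 FPKM in females and 6.17 FPKM in males (the authors' deposited table gives q = 0.00391). Endothelial markers summed to 681 FPKM in females and 461 FPKM in males with 1 of 10 called, Plvap, and a median of 0.37. Among them 6 had an unadjusted p under 0.05 in the authors' deposited table, all with the larger value in females. Nr2f2 is known to be expressed in venous endothelium and in stroma. The part of either cell type in the values of Nr2f1 and Nr2f2 was not tested. The testicular orphan receptors Nr2c1, at 5.995 FPKM in females and 5.61 FPKM in males, and Nr2c2, at 2.57 FPKM in females and 2.204 FPKM in males, had q = 0.999 in the authors' deposited table. Nr2e3, a photoreceptor gene, was listed at 0 in both sexes.

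Estrogen-related receptors bind no estrogen and act with PGC1 coactivators on mitochondrial genes. Esrra was at 22.8 FPKM in females and 25.4 FPKM in males, Esrrg at 11.9 FPKM in females and 9.58 FPKM in males, and Esrrb at 3.63 FPKM in females and 3.15 FPKM in males. Their summed level was 38.3 FPKM in females and 38.1 FPKM in males, and none was called, the lowest q being 0.656 for Esrrg in the authors' deposited table. Esrra shares its interval with Prdx5, at 655 FPKM in females and 608 FPKM in males, and with Trmt112. Of 13 tested mitochondrial targets none was called by the authors' test, nor did any have an unadjusted p under 0.05 in the authors' deposited table. Cycs, the gene of cytochrome c, was at 259 FPKM in females and 225 FPKM in males, and the median of the list was 0.04.

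NR4A receptors are immediate early genes that act without a known classical ligand. Nr4a1 was at 8.96 FPKM in females and 8.59 FPKM in males, and Nr4a2 at 1.67 FPKM in females and 1.94 FPKM in males, and the authors' deposited table gives q = 0.999 for both. Nr4a3 was at 0.151 FPKM in females and 0.105 FPKM in males and was not tested. Other immediate early genes had 3 of 19 tested called, 1 higher in females and 2 higher in males, with a median log2 ratio of -0.13. Fos, a subunit of AP-1, was at 7.01 FPKM in females and 15.2 FPKM in males (the authors' deposited table gives q = 0.00391). Btg2, an antiproliferative gene, was at 58.5 FPKM in females and 87.8 FPKM in males, and Nfil3, a basic leucine zipper repressor, at 5.20 FPKM in females and 2.48 FPKM in males (the authors' deposited table gives q = 0.0284 for Btg2 and q = 0.0302 for Nfil3). Against a log2 ratio of -1.12 for Fos, that of Nr4a1 was 0.06; whether they differ was not tested.

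Of the remaining receptors, Nr0b2 had the lowest p. Nr0b2, also known as SHP, lacks a DNA-binding domain, represses other receptors and is induced by FXR in liver; it was at 4.41 FPKM in females and 2.48 FPKM in males, 1.78-fold apart, and the authors' deposited table gives p = 0.0155 and q = 0.274. It was not called. Nr0b1 (DAX1), the other receptor of this type and an adrenal and gonadal gene, was listed at 0 in both sexes. Nr6a1, a germ cell factor, was at 0.835 FPKM in females and 0.690 FPKM in males, and Nr5a2, known for liver and pancreas, at 0.326 FPKM in females and 0.277 FPKM in males. Rorb was at 0.264 FPKM in females and 0.0685 FPKM in males without a test, on an interval listed for TRPM6 as well.

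Coregulators showed no call in either direction. None of 34 tested genes, 21 coactivators and 13 corepressors, passed the authors' test, and none had an unadjusted p under 0.05 in the authors' deposited table. Over all tested loci 2.34% were called and 9.77% had an unadjusted p under 0.05. Pnrc1, a small coactivator, was at 72.3 FPKM in females and 88.4 FPKM in males. Nrip1 (RIP140), a corepressor, was at 8.33 FPKM in females and 6.77 FPKM in males, and Ncor1, a corepressor of unliganded thyroid hormone and retinoic acid receptors, at 28.5 FPKM in females and 25.7 FPKM in males. Median log2 ratios were -0.00062 for coactivators and -0.06 for corepressors, beside -0.0048 for all tested loci.

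**Figure D4:**
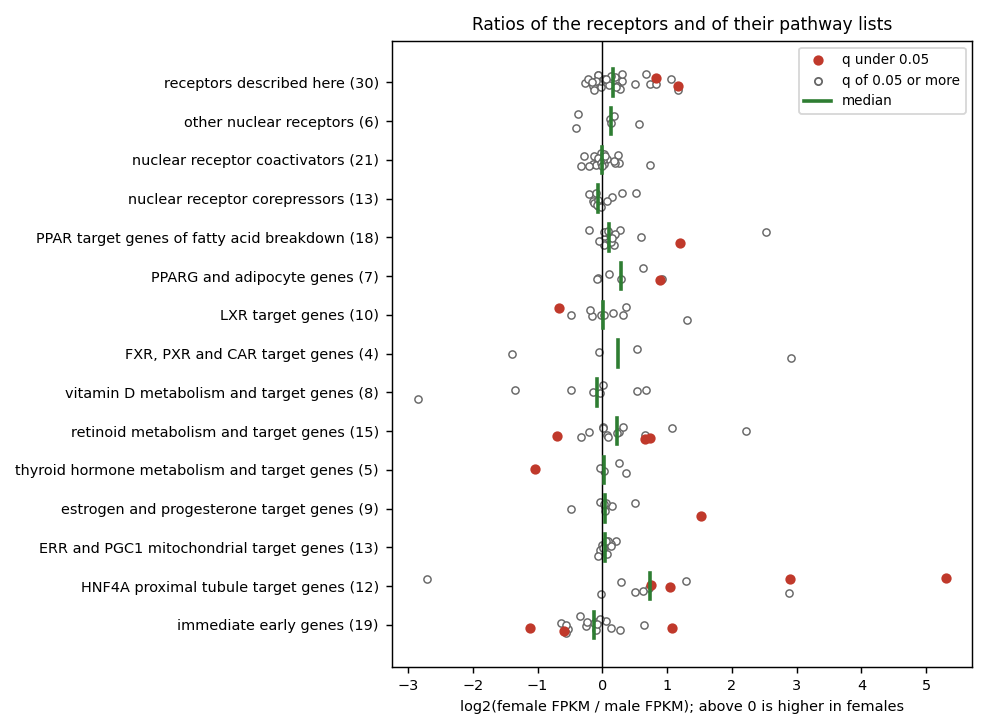
Log2 ratio of female to male FPKM for the tested receptors (top) and for tested genes of 14 pathway lists that are above 0 in both sexes, with the number plotted in brackets; filled points have q under 0.05 in the authors' deposited table and bars are medians. HNF4A targets have a median of 0.74 and 4 filled points to the right of 0, while the coactivator and corepressor lists have none.

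Hexamers of the form AGGTCA, which most nuclear receptors recognise in DNA, were sought on both strands of the promoter windows. They were found in 4 of the receptors' 41 windows (9.76%), those of Rarg, Nr5a2, Esrrg and Nr0b1, and in 16.2% of all windows. Neither Vdr nor Hnf4a has it in the windows shown above. Among all 39 receptors, 13 have an interval that the deposited table lists for another locus too, 6 of them with a gene symbol.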

How the data were processed

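Inner medulla RNA of female and male rats was sequenced from 2 pools per sex, and groups were taken from the sample titles. Per the labels' protocols, a stranded kit for total RNA was used, with paired ends. Build rn5, Cufflinks 2.2.1, TopHat2 2.1.1, StringTie, FastQC and cutadapt appear, without roles, per the submitters' processing notes. FPKM values deposited by the authors join pools of a sex; the unit is not in a header and was read from the values and the tools. Library scaling, the dispersion model and strand use are left unstated, that is, not given in the sources used here. Each locus's p-value and q-value were deposited by the authors; a Benjamini-Hochberg adjustment over 20307 loci gave their q within 5.26e-07. The deposited log2 fold and test statistic, a score here because spreadsheet errors stand in some cells, are male over female per the file headers and values; log2 ratios were recomputed as female over male with no pseudocount (largest gap 6.30e-06 over tested receptors).

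The test fixed for values per pool could not be run on 1 value per sex, so the authors' test was used, as planned for that case. Every receptor is named; of a list, the called genes are named, or, with none called, the tested gene of highest mean FPKM and up to 3 with mean FPKM of at least 1 and the lowest p, from which those that matter to a receptor are printed; some are not reported here. Adipoq, Cidec, Plin1, Apoa1, Abcb1b, Gc, Calb1, Cyp24a1, Aqp1, Aldh1a1, Aldh1a2, Csf1r and Cd68 were named after their values were seen. So were principal cell markers with p under 0.05 and loci that share a receptor's interval. The receptors and lists were chosen with earlier results of these data known. Lists were matched by symbol in any letter case or an older symbol, on the row of highest summed FPKM. Sums of markers without the genes of widest gap were added after seeing the data. Promoter windows are RefSeq's on GRCr8. Depth per value is unknown, so no counting interval was set, and p-values can rest on no more than the spread between 2 pools a sex. Analyses used Python 3.11.15, pandas 2.3.3 and matplotlib 3.10.9, and the adjustment was tested on simulated data.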

Additional observations from a re-analysis of the deposited data

How the results depend on the processing

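The count of 2 called receptors was 2 with q under 0.01, 2 with p adjusted over loci with a symbol and 2 over those whose mean FPKM reached 1. It was 4 with q under 0.10, where Nr2f1 and Nr2f2 were added (691 loci, or 3.4%, pass in all), and 1 over loci whose mean FPKM reached 5, since Hnf4a lies under that level. The share of all loci called was not counted with q under 0.01, over loci with a symbol or over those whose mean FPKM reached 5. The receptors' median log2 ratio of 0.16 was 0.15 with a pseudocount of 0.1, 0.10 with a pseudocount of 1, 0.10 over receptors of mean FPKM of at least 1 and 0.18 after the median ratio of loci of mean FPKM of at least 1 was subtracted. That scaling turned the sign of 1 receptor, Rara, at 0.00018. No other receptor's sign turned under that scaling. The other settings could not turn a sign: the same pseudocount was added to both sexes, and each receptor had 1 row to sum. No paired analysis was possible because the table holds 1 value per sex; leaving out a pool was not run for the same reason. Depth per value is unknown, which limits most the 12 receptors under 1 FPKM.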

Other observations

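Nuclear receptors other than the 39, among them those of the clock, were set beside these as a list of 9, of which 6 were tested and none called by the authors' test; 2 had an unadjusted p under 0.05 in the authors' deposited table. Their median log2 ratio was 0.13. Rora was at 1.89 FPKM in females and 1.27 FPKM in males, and the authors' deposited table gives q = 0.246. Nr1d2, the REV-ERB beta gene, was at 8.55 FPKM in females and 11.05 FPKM in males.

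Some receptors have assembled loci without a symbol on the same deposited interval, and these do not always follow the named gene. On the Esrrb interval such a locus was at 1.43 FPKM in females and 2.76 FPKM in males, while Esrrb was at 3.63 FPKM in females and 3.15 FPKM in males. On the Nr2f2 interval the 2 such loci were at 3.80 and 2.56 FPKM in females and at 3.78 and 1.25 FPKM in males.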
